A study of Homo sapiens with 79 samples.

Results

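Retinal pigment epithelium (RPE) is the pigmented sheet behind the photoreceptors, and much of its work is done by what it secretes and by the ions it moves. The 7 genes described here, BEST1, TTR, SERPINF1, RNASE1, ENPP2, ELN and CST3, encode a chloride channel of RPE and 6 proteins that are exported from the cell. They were taken by symbol from the gene names of the count table, and all 7 of the 7 were found among its 24414 genes. They were chosen by their levels in these same cells, so their levels by day and in pigmented cells are given as a description and without a test.

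BEST1 is the calcium-activated chloride channel of the basolateral membrane of RPE. TTR carries thyroxine and, with its partner RBP4, retinol, and is made by RPE, choroid plexus and liver. SERPINF1 encodes pigment epithelium-derived factor (PEDF), a secreted serpin that restrains vessel growth and supports photoreceptors, while ENPP2 encodes autotaxin, the secreted enzyme that makes lysophosphatidic acid. ELN encodes tropoelastin, the core of elastic fibres such as those of Bruch's membrane, RNASE1 a secreted ribonuclease, and CST3 cystatin C, an inhibitor of cathepsins that RPE and many other cells release.

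Retinal organoids were grown from 1 human embryonic stem cell line, H9 carrying a CRX-GFP reporter for photoreceptor precursors, and dissociated at day 60, day 90 or day 200. All groups shared the same culture, with the ROCK inhibitor Y27632 at the start and later foetal calf serum, T3, taurine and retinoic acid. Single cells were captured on Fluidigm C1 chips and sequenced over the full length of their mRNA. Day 60 gave 578 cells in 19 chip columns, day 90 gave 661 cells in 20 columns, and day 200 gave 356 cells (chip a) and 381 cells (chip b), in 20 columns each. Columns of a chip share one cell suspension, and day 60 and day 90 have 1 chip each. Day and chip therefore cannot be told apart except at day 200, and no test between days was made.

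The 79 columns held 3414268 to 7999822 reads each, and the 4 chips had 4.27% to 7.09% mitochondrial reads. The columns reused 40 cell barcodes by design of the chip, so barcodes alone do not tell cells of different columns apart. Levels are CPM (a gene's reads over all reads, times 1000000), with the reads of all cells in a group summed. Intervals are 95% exact Poisson intervals, which cover counting error only, since the reads carry no molecular identifiers.

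Promoter sequences of RefSeq on GRCh38.p14 were at hand for only 2 of the 7 genes, and both are shown. Between pigmented and other cells, RNASE1 was the most unequal of the 7, level with BEST1, and CST3 the least. Each line gives the 250 bases before the RefSeq transcription start, 5′ to 3′ on the minus strand. They are from chr14:20802845-20803094 for RNASE1 and chr20:23637956-23638205 for CST3. In GENCODE, whose positions are used below, both genes reach further, so the CST3 stretch lies inside its gene and the RNASE1 stretch overlaps the 5′ end of its gene. Capitals mark a TATA-type match (TATAAG) in RNASE1 and a GC box (GGGCGG) in CST3.
RNASE1: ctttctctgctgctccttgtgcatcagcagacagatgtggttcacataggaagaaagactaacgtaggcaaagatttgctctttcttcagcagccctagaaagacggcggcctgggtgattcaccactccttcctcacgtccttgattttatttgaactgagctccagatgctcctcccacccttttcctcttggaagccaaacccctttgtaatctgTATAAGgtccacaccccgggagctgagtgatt
CST3: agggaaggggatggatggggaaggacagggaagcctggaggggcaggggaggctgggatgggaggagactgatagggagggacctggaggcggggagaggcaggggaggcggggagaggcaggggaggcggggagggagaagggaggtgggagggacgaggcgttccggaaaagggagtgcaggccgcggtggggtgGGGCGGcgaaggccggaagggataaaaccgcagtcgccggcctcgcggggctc
The search covered the 300-base window that includes 50 bases after the start, on both strands. The window of RNASE1 was 50% G and C with 5 CpG, and that of CST3 69.7% with 21 CpG, against a median of 58.7% G and C over 35116 promoters. TATAAG was found in 5.59% of all promoters and GGGCGG in 45%. Neither window held TAATCC, the core bound by OTX2 and CRX (6.36% of all promoters), TATAAA (11.5%), or the E-boxes CATGTG (11.1%) and CACGTG (7.26%). None of these motifs overlaps another. BEST1, TTR, SERPINF1, ENPP2 and ELN had no sequence to print.

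In sums over all cells of a chip, 6 of the 7 genes were highest at day 90 and lowest at day 60, and CST3 had its highest levels at day 200. Sums of this kind cannot tell fewer cells of a type from less RNA per cell, which the levels within pigmented cells below address. BEST1 (chr11:61950063-61965515, plus strand) stood at 6.88 CPM (6.39 to 7.40) at day 60, 186 CPM (183 to 188) at day 90, and the day 200 chips a and b at 40.1 and 21.9 CPM. Over the columns, its lowest, median and highest levels were 0, 1.03 and 41 CPM (day 60), 1.73, 165 and 525 CPM (day 90), 0, 10.0 and 209 CPM (chip a), and 0, 18.3 and 81.1 CPM (chip b). Most day 90 columns lay above the highest day 60 column, although the ranges overlapped at the low end. Of the exon bases of BEST1, 1267 (14.6%) are shared with the ferritin gene FTH1 on the opposite strand, and no strand setting is named for the counting. FTH1 stood at 9.09 to 11.5 CPM on the 4 chips, and BEST1 and FTH1 had an r of 0.05 over 1976 cells. The union mode used for counting can leave reads on shared bases out of both genes. These values therefore cannot show whether FTH1 reads entered BEST1.

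TTR (chr18:31557009-31598833, plus strand) stood at 11.5, 296, 51.1 and 27.3 CPM on the day 60, day 90, day 200 a and day 200 b chips. Its columns were the most uneven of the 7 genes at day 90, from 0.158 CPM through a median of 55.5 CPM to 1469 CPM. On chip a, 8 of 20 columns had no TTR read at all. A few cells set these sums, as described below.

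SERPINF1 (chr17:1762029-1777565, plus strand) was found in every column, with lowest, median and highest levels of 19.3, 65.4 and 178 CPM (day 60) and 60.1, 503 and 1207 CPM (day 90). Its chip sums were 68.1, 487, 247 and 170 CPM in the same order of chips. The day 200 columns spanned 53.3 to 949 CPM (chip a) and 42.3 to 360 CPM (chip b), between the day 60 and day 90 medians for the most part.

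RNASE1 (chr14:20801228-20802855, minus strand) had the widest span between days. It stood at 3.45 CPM at day 60, where 15 of 19 columns had no read and 1 cell held 67.1% of the reads, and at 221 CPM at day 90, where 1 of 20 columns had none. Chips a and b of day 200 gave 177 and 74.6 CPM, with column medians of 82.1 and 29.8 CPM. The 2 day 200 chips differed for RNASE1 more than for any other of the 7 genes (SD 0.88 on the log2 scale, n = 2).

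ENPP2 (chr8:119557086-119673453, minus strand) stood at 16.0, 234, 73.5 and 49.8 CPM on the 4 chips. Its column medians were 9.54, 190, 40.5 and 35.3 CPM. ELN (chr7:74027789-74069907, plus strand) stood at 14.6, 126, 19.2 and 15.8 CPM, with column medians of 3.28, 125, 5.50 and 12.1 CPM, so that day 60 and day 200 were alike and day 90 stood apart. CST3 (chr20:23626706-23638473, minus strand) stood at 156, 203, 259 and 339 CPM, with column medians of 145, 169, 178 and 236 CPM, and its column ranges overlapped on all chips.

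**Figure D1:**
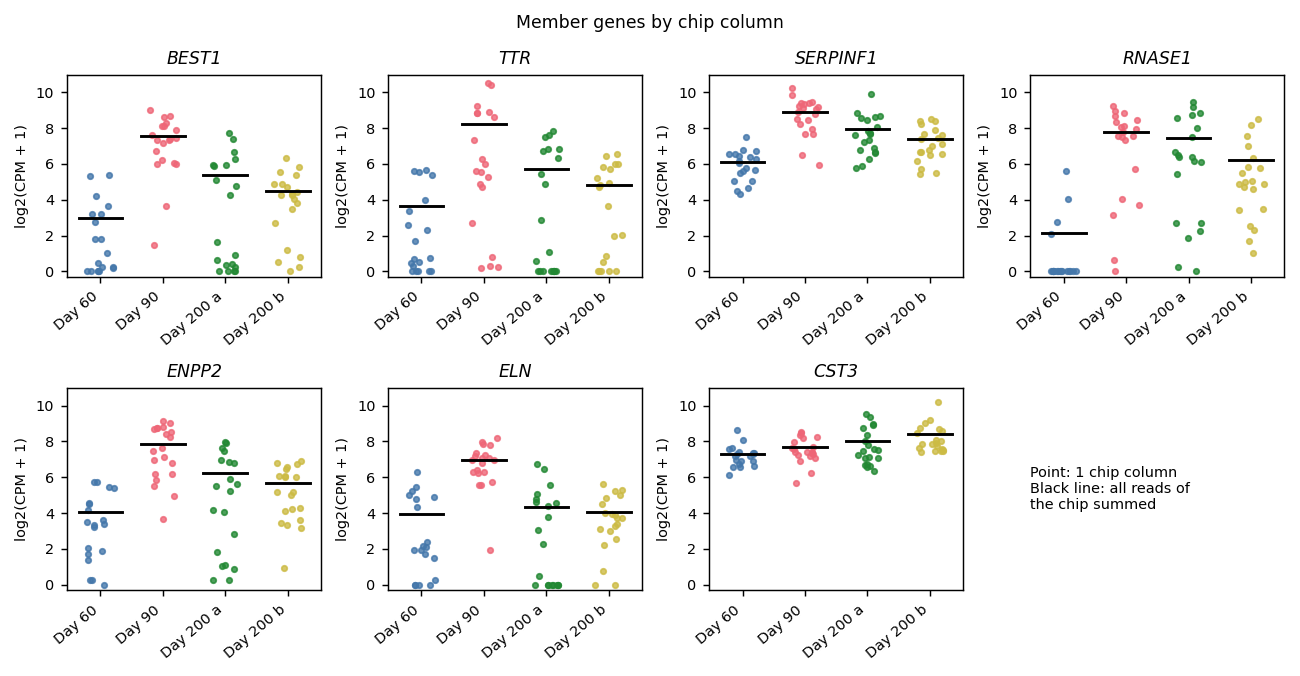
Levels of the 7 genes in each chip column, as log2(CPM + 1), by chip (day 60, day 90, day 200 a and b); each point is 1 of 79 columns and each black line the chip sum. BEST1, TTR, SERPINF1, RNASE1, ENPP2 and ELN have their highest chip sum at day 90, whereas CST3 goes from 156 CPM at day 60 to 339 CPM on chip b of day 200.

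On the scale of log2(CPM + 1), day 90 lay above day 60 by 5.64 for RNASE1, 4.58 for TTR, 4.57 for BEST1, 3.80 for ENPP2, 3.02 for ELN, 2.82 for SERPINF1 and 0.37 for CST3. A difference of at least 2-fold was met by 6 of the 7, where 10.2% of 10894 genes with at least 10 CPM on either chip were that much higher. The median of the 7 was 3.80 and that of all genes tested 0.01. The genes were listed for this pattern, so nothing is read from the count.

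Levels at day 200 lay between those of day 60 and day 90 for 6 of the genes. The mean of the 2 day 200 chips lay below day 90 by 2.95 for TTR, 2.79 for ELN, 2.61 for BEST1, 1.94 for ENPP2, 1.25 for SERPINF1 and 0.94 for RNASE1, as log2 differences. CST3 lay above day 90 by 0.54. On chip a, BEST1, TTR, ENPP2 and ELN were at least 2-fold lower than at day 90 (6.47% of all genes tested were that much lower), and on chip b SERPINF1 and RNASE1 as well (4.48%). For RNASE1 the difference from day 90 was −0.32 with chip a and −1.55 with chip b, and for SERPINF1 −0.98 and −1.52. Between the 2 day 200 chips, RNASE1 alone differed by at least 2-fold, higher on chip a (5.7% of genes were that much higher there), with a log2 difference of 1.24.

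Levels can be set between genes only per length. Per kb of exon and over all cells, RNASE1 was highest at 113 CPM per kb, followed by SERPINF1 at 84.4, CST3 at 64.7, TTR at 48.4, ENPP2 at 14.7, BEST1 at 7.94 and ELN at 7.25 CPM per kb. The order differed by chip: RNASE1 came first at day 90 (204 CPM per kb) and on chip a (164), and CST3 at day 60 (43.3, with RNASE1 at 3.19) and on chip b (93.9, with RNASE1 at 68.9).

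Reads of these genes came from few cells. The fewest cells that together held 50% of the reads were 4 of 1976 for TTR, 17 for RNASE1, 25 for BEST1, 29 for ENPP2, 31 for ELN, 52 for SERPINF1 and 98 for CST3. Pigmented cells were therefore marked by genes outside the list. A cell was called pigmented when at least 3 of 10 melanin genes (TYR, TYRP1, DCT, PMEL, MLANA, SLC45A2, OCA2, SLC24A5, GPR143 and RAB38) reached 50 CPM. This held for 131 of 1976 cells (6.63%).

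By chip, 7 of 578 cells were pigmented at day 60 (1.21%, exact binomial interval 0.488% to 2.48%), 103 of 661 at day 90 (15.6%, 12.9% to 18.6%), 9 of 356 on chip a (2.53%, 1.16% to 4.74%) and 12 of 381 on chip b (3.15%, 1.64% to 5.44%). All 20 columns of day 90 held at least 1 such cell, against 6, 7 and 10 columns of the other chips. In a clustering that left out the 7 genes, 96 of the 98 cells of the RPE-like cluster were pigmented. The remaining 35 pigmented cells lay in other clusters.

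All 7 genes were at least 2-fold higher in pigmented than in other cells, where 9.8% of 11049 genes were that much higher. The median log2 difference was 5.17 for the 7 genes and −0.17 for all genes tested. BEST1 stood at 875 CPM in pigmented and 11.3 CPM in other cells (log2 difference 6.16), RNASE1 at 1544 and 20.6 CPM (6.16) and ELN at 581 and 9.5 CPM (5.79). ENPP2 followed at 1080 and 29 CPM (5.17), then TTR at 1015 and 40.3 CPM (4.62), SERPINF1 at 2411 and 97.7 CPM (4.61), and CST3 at 1000.5 and 179 CPM (2.47). The share of a gene's reads that lay in pigmented cells was 84.8% for BEST1, 84.3% for RNASE1, 81.4% for ELN, 72.8% for ENPP2, 64.3% for TTR, 63.9% for SERPINF1 and 28.6% for CST3. Most CST3 reads thus came from other cells. These levels also chose the genes, so they are no check of the label, and TTR on chip a of day 200 went against it, with 0 CPM in pigmented and 52.4 CPM in other cells.

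Per kb of exon, the order within pigmented cells was RNASE1 (1426 CPM per kb), SERPINF1 (806), TTR (466), CST3 (277), ENPP2 (161), BEST1 (101) and ELN (88.4). Most of these cells were of day 90. At day 60, SERPINF1 (365 CPM per kb) and CST3 (347) lay above RNASE1 (184), and on both day 200 chips CST3 lay above TTR. In other cells CST3 came first at 49.6 CPM per kb and SERPINF1 next at 32.7, with BEST1 last at 1.30 CPM per kb. RNASE1 and TTR, at 19.0 and 18.5 CPM per kb, were next to each other.

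For 6 of the genes, cells with 3 or more melanin genes had higher levels than cells with fewer at each step. BEST1 stood at 8.39 CPM in the 1323 cells with no melanin gene at 50 CPM, 12.8 CPM in 448 cells with 1 gene and 54 CPM in 74 cells with 2. It reached 372 CPM in the 38 cells with 3 genes, 958 CPM in 25 cells with 4 and 1083 CPM in 68 cells with 5 or more. The cells just outside the limit (2 genes) and just inside it (3 genes) thus differed for BEST1, and likewise for SERPINF1 (223 and 1232 CPM) and ELN (14.8 and 170 CPM). CST3 differed less there (368 and 440 CPM). TTR followed no such order, with 254 CPM in cells with 2 genes, 167 with 3, 66.9 with 4 and 1696 CPM with 5 or more.

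**Figure D2:**
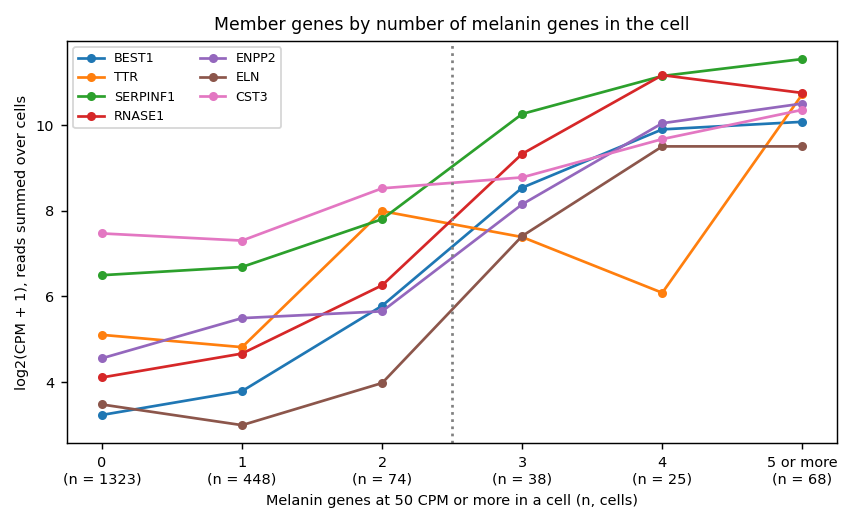
Levels of the 7 genes as log2(CPM + 1), reads summed over all cells that had 0 to 5 or more melanin genes at 50 CPM; n is the number of cells and the dotted line the limit for a pigmented cell. Apart from TTR, which drops to 66.9 CPM at 4 genes, and CST3, which starts high at 177 CPM, the lines climb between 2 and 4 melanin genes.

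Nearly every pigmented cell carried SERPINF1, and most lacked TTR. After thinning each cell to 50000 reads, SERPINF1 was found in 96.2% of pigmented cells, CST3 in 92.4%, ELN in 89.3%, ENPP2 in 84.7%, BEST1 in 73.3%, RNASE1 in 67.2% and TTR in 28.2%. In other cells with that depth (1839 of 1845) the shares were 34.6%, 59.7%, 10.1%, 13.5%, 9.03%, 11.7% and 5.66%, in the same order. Without thinning, TTR had reads in 38.9% of pigmented and 9.97% of other cells. At least 5 of the 7 genes were found in 102 of 131 pigmented cells (77.9%) and in 38 of 1839 other cells (2.07%).

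The quartiles over pigmented cells show the same contrast. SERPINF1 had a median of 2049 CPM and quartiles of 390 and 3858 CPM, and BEST1 a median of 410 CPM and quartiles of 9.18 and 1534 CPM. ENPP2, ELN and CST3 had medians of 474, 371 and 517 CPM. RNASE1 had a median of 227 CPM, a lower quartile of 0 and an upper quartile of 2110 CPM, so that many pigmented cells had none and others much. TTR had a median of 0 and an upper quartile of 12.5 CPM, but a highest cell of 35948 CPM.

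Within pigmented cells the genes differed in when they were highest. RNASE1 stood at 199 CPM in the 7 cells of day 60, 1222 CPM in the 103 cells of day 90, 5457 CPM in the 9 cells of chip a and 1196 CPM in the 12 cells of chip b. BEST1 stood at 110, 987, 1119 and 228 CPM, and ENPP2 at 211, 1192, 1357 and 457 CPM. These 3 genes were lowest at day 60, where 2 of 7 cells had BEST1 reads and 2 of 7 had RNASE1 reads.

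SERPINF1, ELN and CST3 were already high in the few pigmented cells of day 60. SERPINF1 stood at 1092, 2347, 4866 and 1430 CPM on the 4 chips, and all 7 day 60 cells had its reads (106 to 2777 CPM). ELN stood at 591, 663, 408 and 137 CPM, with its highest level at day 90. CST3 stood at 1253, 796, 2326 and 1233 CPM, lowest at day 90.

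Chips a and b of day 200 disagreed in the pigmented cells. The RPE-like cluster held 9 cells of chip a and 6 of chip b, against 9 and 12 pigmented cells. Many pigmented cells of chip b thus lay in other clusters, and the part of this in the difference was not tested. The levels on chip a were above those on chip b for BEST1, SERPINF1, RNASE1, ENPP2, ELN and CST3, and only TTR was higher on chip b (155 CPM, from 1 of 12 cells, against 0 CPM on chip a). The summed level of the 10 melanin genes was 9396 CPM in the pigmented cells of chip a and 4705 CPM in those of chip b, against 4571 CPM (day 60) and 7594 CPM (day 90). The summed level of 10 mesenchyme genes, led by MGP, COL1A2, COL3A1 and COL1A1, was 620 CPM on chip a, 6327 CPM on chip b, with 669 and 1189 CPM in those of the earlier days. The part of these genes in the difference between the chips was not tested.

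**Figure D3:**
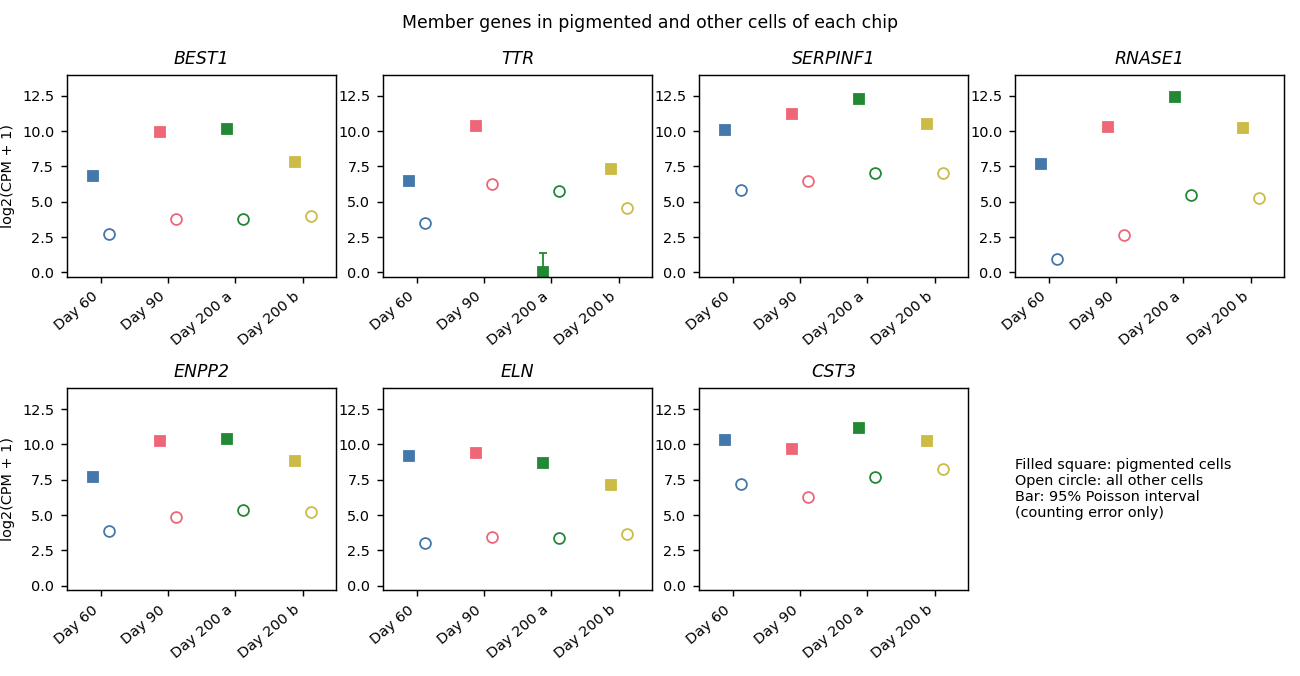
Levels of the 7 genes as log2(CPM + 1) in the pigmented (filled squares) and all other cells (open circles) of each chip, with bars for 95% Poisson intervals. Pigmented cells lie above the other cells on every chip and for every gene, except for TTR on chip a of day 200, which had 0 reads in 9 pigmented cells.

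Cells that were not pigmented showed another course. RNASE1 stood at 0.975 CPM in the other cells of day 60 and 5.24 CPM at day 90, then at 42.8 and 36.7 CPM on the 2 day 200 chips. CST3 stood at 143, 74.8, 206 and 309 CPM. Both genes were at least 2-fold higher on both day 200 chips than at day 90 in other cells, where 8.39% (chip a) and 7.01% (chip b) of all genes were that much higher. TTR stood at 10.5 CPM (day 60), 76.3 CPM (day 90), 52.4 CPM (chip a) and 23 CPM (chip b) in other cells. With BEST1 (5.58 and 12.8 CPM) it was at least 2-fold higher at day 90 than at day 60, where 9.24% of genes were, and on chip b it was at least 2-fold lower than at day 90, where 4.26% were. The 2 other cells of day 90 with most TTR held 67.8% of these reads, and without them the day 90 level was 24.7 CPM and the call against chip b ended. BEST1 then stood at 12.6 and 14.9 CPM, and ELN at 7.32 to 11.7 CPM throughout.

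At day 90, low levels of several of the genes were found together in cells that were not pigmented. At least 5 of the 7 genes had reads in 30 of 552 other cells of day 90 thinned to 50000 reads (5.43%), against 0 of 571 (day 60), 3 of 347 (chip a) and 5 of 369 (chip b). RNASE1 had reads in 22.4% of the other cells of day 90, although its level there was 5.24 CPM and its upper quartile 0. Whether such reads came from the cell itself was not tested.

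Outside pigmented cells each gene had its own place among the classes of the clustering. The classes were named from the study's marker lists without the 7 genes, and 309 cells that were not pigmented stayed unnamed. The RGC-like cells, named after retinal ganglion cells, are given for comparison. They had 2.4 CPM of TTR, 2.57 of ELN, 3.90 of RNASE1, 5.61 of BEST1, 28.8 of SERPINF1, 33.4 of ENPP2 and 103 of CST3. Levels of a class on 1 chip often rested on 1 or 2 cells, so an alternative chosen after seeing the data left out the cells with most reads of a gene, and its values are given where they moved a level by over 1.5 times.

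TTR was also found in the rod-like class, at levels that few cells set, mostly in a cluster without rod phototransduction genes among its leading genes. Rod-like cells that were not pigmented stood at 194 CPM, against 38.6 CPM in cone-like, 4.93 in Müller glia-like and 2.96 CPM in cluster 8-like cells. By chip the rod-like cells stood at 34.7 CPM (day 60), 382 CPM (day 90), 198 CPM (chip a) and 125 CPM (chip b). At day 90, 2 cells held 94.6% of these reads, and the level without them was 21.4 CPM. Leaving out 2 cells gave 14.0, 108 and 66.9 CPM on the day 60 chip and chips a and b. With all cells kept, and beside the 2 RPE-like cells that were not pigmented, rod-like cells were the highest named class on 3 of the 4 chips. The exception was day 60, where the 17 cells of the cluster 7-like class stood at 68.8 CPM, and at 1.20 CPM without 1 cell of 1524 CPM. At day 90 the rank is that of the level with the 2 cells in, and 3 cone-like cells of that day had at least 1000 CPM of TTR.

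The rod-like class consisted of 2 clusters, and TTR lay mostly in 1 of them. That cluster met 5 of the 10 rod markers of the study and 4 of the 10 RGC markers. Its leading genes VSX1, LHX4 and NEUROD4 are those of bipolar and photoreceptor precursors. For it, rod-like is a name from the marker list and not a rod identity. The cluster led by VSX1, KLHL35, SSTR2 and LHX4 (217 cells) held 24.6% of all TTR reads at 254 CPM, and its level was 34.7 CPM (day 60), 506 CPM (day 90), 327 CPM (chip a) and 157 CPM (chip b). Without the 2 cells with most TTR on each chip, these levels were 14.0, 29.4, 180 and 84.7 CPM. The cluster led by CCKBR, GNAT1, PDE6G and ROM1 (62 cells), genes of rod phototransduction among them, stood at 11.7 CPM, with 38.1 at day 90 and 0.424 and 0.442 CPM on the 2 day 200 chips. On chip a, the cluster led by VSX1 held 71.9% of the TTR reads and on chip b 56.6%. TTR was found in 14.7% of its cells at 50000 reads and in 4.84% of the cells of the other rod-like cluster.

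High TTR cells fell into both kinds. Of the 35 cells with at least 1000 CPM of TTR, 13 were pigmented and 22 were not, and 14 of the 35 were rod-like. The highest cell, on day 90, had 35948 CPM of TTR and 7 melanin genes, and the next had 18277 CPM and 6. These 2 cells held 17.9% and 19.5% of all TTR reads. The third, at 12878 CPM, was a rod-like cell of day 90 with no melanin gene and no read of BEST1, RNASE1, ENPP2 or ELN.

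On chip a all 4941 TTR reads lay in cells that were not called pigmented. One of them was an RPE-like cell just short of the limit, with 2 melanin genes, 2590 CPM of TTR, 2286 CPM of BEST1 and 7748 CPM of SERPINF1. Of the 8 cells of that chip with at least 1000 CPM, 6 were rod-like. The 0 reads in the 9 pigmented cells allow a level of up to 1.25 CPM by counting alone (3 reads), and 9 cells are too few to show how many pigmented cells with TTR the day 200 organoids held.

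ELN and SERPINF1 were both found in ECM-like cells, whose leading genes include COL3A1, TGFBI and DCN. ELN stood at 122 CPM in the 81 ECM-like cells that were not pigmented. The other named classes had at most 6.64 CPM, beside the 2 RPE-like cells that were not pigmented, 1 of which had 515 CPM. By chip the level in ECM-like cells was 199 CPM (day 60), 132 CPM (day 90), 201 CPM (chip a) and 62.1 CPM (chip b). Without the 2 cells with most ELN on each chip, the level was 80.9, 56.6, 69.3 and 29.4 CPM. At 50000 reads, ELN was found in 58.2% of these cells and in 4.05% of RGC-like cells. SERPINF1 stood at 329 CPM in ECM-like cells, and on the 4 chips at 172, 204, 446 and 467 CPM. On chip a, with 6 such cells, the level without 1 cell was 205 CPM, and at day 60 it was 82.2 CPM without 2 cells.

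SERPINF1 was also found in photoreceptor-like cells, at 168 CPM in cone-like and 131 CPM in rod-like cells, against 52.2 CPM in Müller glia-like cells. In cone-like cells it stood at 126 CPM (day 60), 95.7 CPM (day 90), 234 CPM (chip a) and 261 CPM (chip b). The 2 day 200 chips were both above the earlier days, although chip b stood at 173 CPM without 2 cells.

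CST3 was the most widely spread of the genes. Its level in cells that were not pigmented was 290 CPM in ECM-like, 245 in cluster 8-like, 216 in Müller glia-like, 174 in cluster 7-like, 152 in mitotic-like, 150 in cone-like and 138 CPM in rod-like cells. Within the Müller glia-like class, the smaller cluster of 96 cells, led by IGFBP6, ABCB1 and RGS4 and with no Müller marker among its 10 leading genes, stood at 478 CPM and the larger of 437 cells at 133 CPM. On chip b the smaller cluster held 33.5% of the CST3 reads at 707 CPM, and 1 Müller glia-like cell of that chip, at 20185 CPM, held 15.3% of the chip's CST3 reads. Without that cell the smaller cluster stood at 391 CPM on chip b.

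RNASE1 and ENPP2 were low outside pigmented cells and spread over several classes. RNASE1 on day 200 stood at 60.5 and 24.8 CPM in Müller glia-like cells (chips a and b), 41.2 and 67.1 in rod-like cells and 41.3 and 36.5 CPM in cone-like cells, against 8.03 and 15.8 CPM in RGC-like cells. Without 1 cell, Müller glia-like cells of chip a stood at 32.8 CPM and rod-like cells of chip b at 28.6 CPM. At day 60 all these classes were at or below 0.502 CPM. ENPP2 stood at 67 CPM in cluster 8-like cells, which carry GPC3, SPARCL1 and S100B, at 45.05 in rod-like cells and at 5.08 CPM in ECM-like cells. Its level in the 10 RGC-like cells of chip a was 248 CPM, against 9.74 CPM on chip b, but 0.385 CPM without 1 cell that held 99.9% of the reads.

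BEST1 stayed low in all these classes, at 5.07 CPM in cone-like to 20.0 CPM in ECM-like cells. This leaves aside the 2 RPE-like cells that were not pigmented, 1 of which had 2286 CPM. Of the 50 cells with at least 1000 CPM of BEST1, 47 were pigmented. The counts for ELN (28 of 29) and RNASE1 (52 of 59) were of the same kind, whereas SERPINF1 (87 of 122) and CST3 (40 of 74) had many such cells elsewhere.

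**Figure D4:**
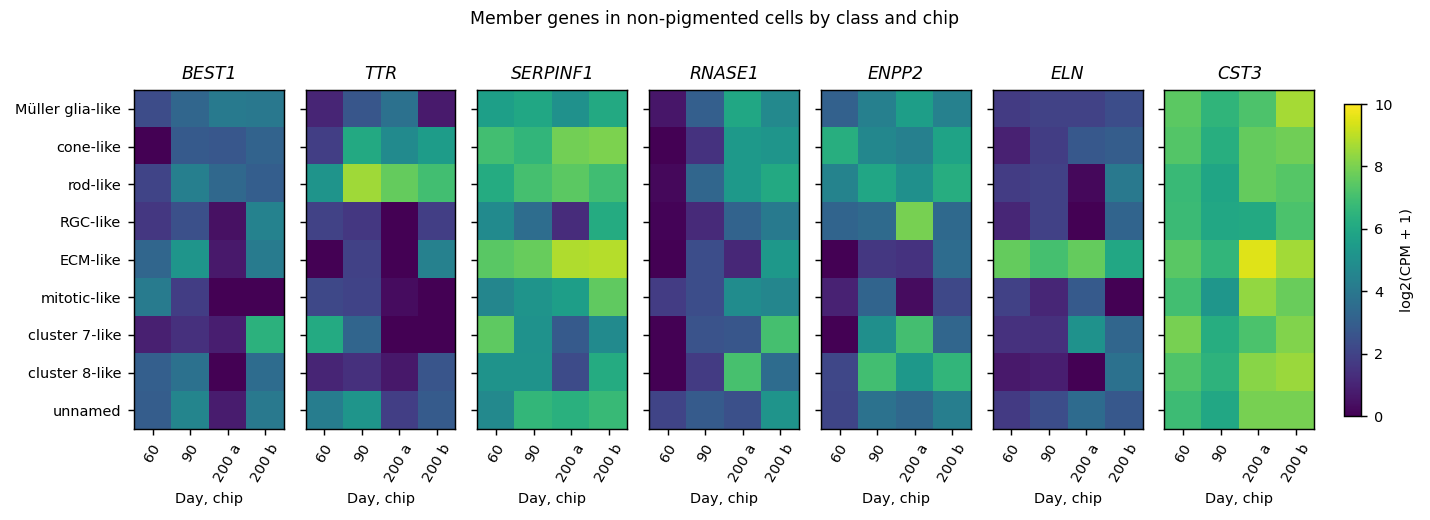
Levels of the 7 genes as log2(CPM + 1) in cells that were not pigmented, by class (rows) and chip (columns); brighter is higher. TTR is bright in the rod-like class (mostly its cluster led by VSX1), at 382 CPM at day 90 (21.4 CPM without 2 cells). ELN is bright in ECM-like cells, and CST3 in every class.

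Cells that had more of one gene tended to have more of the others, with TTR apart. Over the 131 pigmented cells, Pearson's r of log2(CPM + 1) ran from −0.02 to 0.72 over the 21 pairs, with a median of 0.59. The highest values were 0.72 for SERPINF1 with ELN, 0.71 for BEST1 with SERPINF1 and 0.70 for BEST1 with ENPP2. TTR had an r of −0.02 to 0.19 with the other 6, and RNASE1 with ELN was at 0.37. Cells share their chip and their depth, and no p is given. Among the 1845 other cells the 21 values ran from −0.00 to 0.21.

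**Figure D5:**
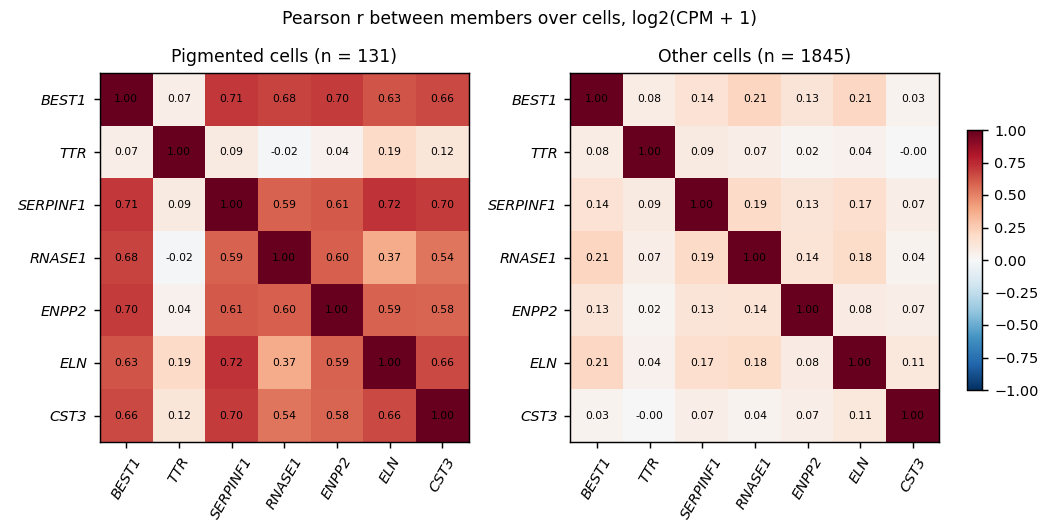
Pearson's r between the 7 genes over single cells, on log2(CPM + 1), for 131 pigmented cells (left) and 1845 other cells (right); red is positive. In pigmented cells the row of TTR is pale (−0.02 to 0.19) where the pairs of the other 6 genes have an r of 0.37 to 0.72.

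The genes most like each member over all 1976 cells, among 18707 genes with reads in at least 20 cells, were in the main other RPE genes. BEST1 was most like TRPM1, a cation channel gene (r = 0.60), COL8A1, a collagen of Descemet's and Bruch's membranes (0.59), and ELN (0.58). ELN was most like TYR, the enzyme that starts melanin synthesis (0.63), and RNASE1 most like COL8A1 (0.56). ENPP2 was most like TYR (0.54) and SERPINF1 most like ELN (0.46). TTR (TYR, 0.26) and CST3 (ELN, 0.29) had no gene above an r of 0.30.

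In cells that were not pigmented, the likeness was weaker, and it pointed to other genes for ELN, TTR, SERPINF1 and CST3 only. BEST1 (0.23) and RNASE1 (0.27) were still most like COL8A1. ENPP2 was most like SFRP5 (0.18), another RPE gene, and the melanin gene DCT (0.15). SERPINF1 was most like COL3A1 (0.22) and CST3 most like SPARC (0.20). ELN was most like the matrix genes DCN (0.36), COL3A1 (0.35), BGN (0.33), TGFBI (0.33) and MGP (0.33). TTR was most like LHX4 (0.19), VSX1 (0.19) and NEUROD4 (0.18), transcription factors of bipolar and photoreceptor precursors, at values that are weak in sparse counts. Within the pigmented cells, COL8A1 was among the 5 most like genes of BEST1, SERPINF1, RNASE1, ENPP2 and ELN (0.61 to 0.75).

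Other genes of RPE were higher in pigmented cells as well. Of 26 genes of RPE function, all 26 were tested, 21 were at least 2-fold higher and none lower, with a median log2 difference of 3.54. Among those with the highest levels were TIMP3, an inhibitor of matrix proteases (1822 CPM in pigmented and 90.3 CPM in other cells), FRZB, a Wnt antagonist (447 and 140 CPM), and TRPM3, a cation channel (1265 and 77.6 CPM). OTX2, a transcription factor of RPE and photoreceptors, stood at 488 and 318 CPM. Genes of the visual cycle were chosen after their values were seen. RPE65, the isomerase, stood at 12.7 and 0.960 CPM, with no read on either day 200 chip. It was low, with reads in 13.7% of pigmented cells, so its absence from the 9 and 12 pigmented cells of day 200 says little. RLBP1, a retinal-binding protein, stood at 156, 750, 1567 and 238 CPM in the pigmented cells of the 4 chips, and LRAT, which esterifies retinol, at 9.93, 139, 205 and 80.5 CPM. Both were lowest at day 60 and highest on chip a.

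The partners of the 7 genes were spread differently. Of the channel and transporter genes around BEST1, 4 of 8 in the table were tested. Of these, 2 were higher, CLIC6 (154 and 13.3 CPM) and KCNJ13 (88.6 and 4.49 CPM), genes of chloride and potassium channels. CACNA1D, a calcium channel gene, stood at 19.7 and 13.0 CPM. SLC12A2, the cotransporter that loads chloride, stood at 101 and 95.2 CPM. Of 5 tested carriers and receptors of retinol and thyroxine none differed by 2-fold. The TTR partner RBP4, the fifth of its list by level and chosen after its values were seen, stood at 12.4 and 23.6 CPM, STRA6 at 174 and 126 CPM, and LRP2 at 71.2 and 131 CPM.

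Receptors for the products of SERPINF1 and ENPP2 were read in the same comparison. Of 6 tested genes for PEDF receptors and the VEGF system, which PEDF opposes, none was higher and 2 were lower in pigmented cells, FLT1 (38.8 and 82.9 CPM) and KDR (17.8 and 75.8 CPM). Both are VEGF receptors, and no tested PEDF receptor gene was past 2-fold, with RPSA at 949 and 950 CPM. VEGFA stood at 303 and 310 CPM. Of 6 tested genes of lysophosphatidic acid signalling, 1 was higher and 3 were lower, among them LPAR2 (10.1 and 23.3 CPM) and LPAR6 (6.33 and 22.2 CPM).

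Of 8 tested cathepsins and cystatins, 6 were higher in pigmented cells and none lower, the targets of CST3 among them: CTSB at 900 and 309 CPM, CTSH at 193 and 36.8 CPM and LGMN at 239 and 34.6 CPM. Of 12 tested elastic fibre genes, 4 were higher, with FBN1, the fibrillin on which elastin is laid, at 188 and 90.5 CPM, and 1 was lower. FBLN1 stood at 275 and 294 CPM. Of 2 tested ribonuclease genes, ANG was higher (65.7 and 18.1 CPM), and RNASET2 stood at 66.3 and 43 CPM. In this comparison 9.8% of all genes were at least 2-fold higher and 14.1% lower.

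Markers of other cell types were read in the same cells. All 4 tested choroid plexus genes, an epithelium that makes TTR too, were higher in pigmented cells, among them CLIC6, AQP1 (101 and 18.4 CPM) and CLDN2 (41 and 3.17 CPM), and RPE is known to share some of them. The summed level of the 7 choroid plexus genes in the table was 134 to 451 CPM in pigmented and 28.5 to 68.4 CPM in other cells of the 4 chips. The mesenchyme sum was 620 to 6327 CPM and 1291 to 5782 CPM, the melanocyte sum 31.6 to 84.3 CPM and 69.96 to 112 CPM, and the endothelium sum 0.416 to 91.1 CPM and 39.6 to 154 CPM, in the same order. PECAM1, CDH5 and ESAM of endothelium and P2RY12 of microglia were at 0 in pigmented cells. The melanocyte genes SOX10 and FOXD3 were not analysed here.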

How the data were processed

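Single-cell libraries (SMART-Seq v4, Nextera XT) were paired-end sequenced. The authors trimmed reads with Trimmomatic 0.33, aligned them with STAR 2.4.0 to GRCh38.p7 with GENCODE annotation and spike sequences, summarised reads over genes with HTSeq 0.6, and removed poor cells and rare genes. The authors' read limit for cells was lower at day 60. Their spike limit was looser at day 90, where more concentrated spike RNA had been added. The deposited values are raw read counts of 1976 cells without molecular identifiers. All cells were mapped to chip columns, and the spike-in row was left out of library sizes. Here counts were summed and scaled to CPM with pandas 2.3.3, numpy 2.4.6 and scipy 1.17.1 in Python 3.11.15. Folds use a pseudocount of 1 CPM and genes of at least 10 CPM on either side. Thinning drew 50000 reads per cell, which left out 6 cells. Clusters were rebuilt with Seurat 5.3.0 in R 4.3.3 (1000 variable genes per day, 2419 in all without the 7 genes, CCA, 20 dimensions, resolution 0.6). A cluster took the name of a list with at least 3 markers that were 2-fold higher after an offset of 5 CPM and present in 20% of its cells. These names may differ from those of the study. Doublets were called with scrublet in scanpy 1.11.5 (1, 0, 22 and 2 cells on the 4 chips) and kept. Steps were tested on simulated data. Gene positions are from GENCODE on GRCh38, and promoters from RefSeq. No test was made: cells and columns are not replicates. The genes named are the 7, the melanin genes, up to 4 genes of highest level per context list and the 5 genes most like each. The members and lists were chosen with earlier results of these data known. Genes of the lists that the table did not hold were not analysed here. One gene of these lists is not reported here.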

Additional observations from a re-analysis of the deposited data

How the results depend on the processing

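Alternatives were read against the spread of the 2 day 200 chips (SD, n = 2). No paired analysis was possible because the results come from no test. All values are log2 differences unless given in percent, and the cause of a move was not tested. With non-pigmented cells only, where the pigmented cells are left out by construction, day 90 over day 60 was 1.07 for BEST1, 2.75 for TTR, 0.63 for SERPINF1, 1.66 for RNASE1, 0.99 for ENPP2, 0.42 for ELN and −0.92 for CST3, and day 200 over day 90 was 0.091, −1.11, 0.57, 2.70, 0.45, 0.038 and 1.74, so that CST3 turned its direction in the earlier step, and BEST1, SERPINF1, RNASE1, ENPP2 and ELN in the later one. With cells of at least 150000 reads and at most 10% mitochondrial reads, day 90 over day 60 was 5.24 for BEST1, 5.49 for TTR, 3.28 for SERPINF1, 6.63 for RNASE1 and 3.94 for ELN, and day 200 over day 90 was −3.90 for TTR, −3.27 for ELN and 0.16 for CST3. With a pseudocount of 10 CPM, day 90 over day 60 was 3.54 for BEST1, 3.83 for TTR, 4.10 for RNASE1, 3.24 for ENPP2 and 2.47 for ELN, and day 200 over day 90 was −2.31 for ELN. With the mean over cells, TTR gave 3.59 and −2.04 and ELN 2.83 and −2.48 for the 2 steps. Without the highest cell of each chip, RNASE1 gave 6.65 for day 90 over day 60. Pigmented over other cells on single chips was 4.08 (day 60) and 3.85 (chip b) for BEST1, 3.87 and 3.63 for ENPP2, 3.45 on chip b for ELN, 7.61 at day 90 for RNASE1, and −5.74 on chip a for TTR, where no pigmented cell had a read. The share of genes past 2-fold in either direction was 7.87%, 5.25%, 3.87% and 4.16% with a pseudocount of 10 CPM (day 90 over day 60, chips a and b over day 90, and chip a over b), against 17.6%, 14.3%, 10.9% and 12.5%. With no minimum level it was 22.4% and 16.8% for chips a and b over day 90. Of the 35 most like genes, 7 were named again within pigmented cells. TMM and median-of-ratios scaling and leaving out doublets moved no log2 difference by more than that spread. Nor did the other limits on melanin genes or the RPE-like cluster in their place. For pigmented over other cells that spread was wide, from 0.98 for ENPP2 to 5.97 for TTR, which had 0 pigmented reads on chip a. Staying within it is therefore a weak check there. Spike-in reads in the library size could move nothing, since the 1 spike row of the counts held at most 0.0165% of the reads of a chip. It had no read at day 60 or day 90, although the authors describe a high spike share at day 90. The spike content of the cells therefore could not be read from these counts. Leaving out 1 of the 2 day 200 chips moves their mean by less than their SD by construction, and is no sign of stability. Outside day 90, pigmented cells numbered only 7, 9 and 12.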

Other observations

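CSF1R, the receptor of a macrophage growth factor, was the 1 tested gene of the microglia list and stood at 28.7 CPM in pigmented and 0.767 CPM in other cells, while AIF1 stood at 3.79 and 1.77 CPM and P2RY12 had no read in pigmented cells. CSF1R had reads in 20.6% of pigmented and 1.30% of other cells, at 30.0 CPM at day 90 and 56.2 CPM on chip b of day 200, and none on chip a or at day 60.

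Within pigmented cells, BEST1 was most like DUSP4, a phosphatase that switches off MAP kinases (r = 0.76 over 131 cells), which was also among the 5 most like genes of RNASE1 (0.66) and ENPP2 (0.61). SERPINF1 was like BMP7, a secreted signal (0.71), and CST3 like CTSD, a cathepsin of lysosomes (0.63).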
